A study of Mus musculus with 6 samples.

Results

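Multipotent progenitors (MPP) were compared with short-term haematopoietic stem cells (ST-HSC) in mice carrying a knock-in allele of Idh1, at 911347 CpG positions. A position is 1 cytosine on 1 strand, and a position was taken where it lay on an autosome and had at least 10 reads in both libraries. These were 911347 of the 1352372 positions in the series, 1325626 of which were autosomal, and the comparison used 2 of its 6 samples. Enhanced reduced representation bisulfite sequencing (eRRBS) measured the percent of reads methylated at each position in CpG-rich restriction fragments. The 2 samples, called KI MPP and KI ST-HSC, came from male C57BL/6 mice of genotype IDH1+/lsl VavCre+ aged 7 to 10 months. KI MPP were sorted as Lin- Sca+ Kit+ CD150- cells and KI ST-HSC as Lin- Sca+ Kit+ CD150+ CD48+ cells. Control MPP and Control ST-HSC came from IDH1+/+ VavCre+ littermates of the same strain, sex and age range, sorted with the same gates. Each sample was 1 library from the pooled marrow of 6 mice per group, so no group had a replicate. VavCre switches the allele on in blood cells, and the controls carry Cre too. KI MPP was read on lane 4 and KI ST-HSC on lane 3, per the deposited names, so lane, library and cell type cannot be told apart. The assay measures no RNA or protein and so gives no check of cell type beyond the sort gates.

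Methyl groups on CpG cytosines are placed by the DNMT enzymes and oxidised by the TET enzymes, which use 2-oxoglutarate. Mutant IDH1 makes 2-hydroxyglutarate, a competitor of 2-oxoglutarate that can inhibit TET enzymes. Stem cells that become multipotent progenitors lose long-term self-renewal, and methylation at genes of stem cell regulators is known to differ between such stages.

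The term "called" is used here in a fixed and limited sense. A region was called where the means of its position levels differed by at least 10 percentage points and the summed reads differed in a two-sided Fisher's exact test, with a Benjamini-Hochberg adjusted p under 0.01 over all regions. That test compares 2 libraries and counts every read as a separate molecule. The number of molecules behind the reads is not known. Over 9616 CpGs of intermediate level read on both strands, the SD of the difference between strands was 27.1 points within KI MPP and 27.9 points within KI ST-HSC. Between the libraries it was smaller, at 18.8 points for KI MPP minus KI ST-HSC on the forward strand and 18.7 points on the reverse. If the whole spread were sampling, the strands would correspond to 5.42 and 5.11 molecules per position and the libraries to 10.6 and 10.8. A fixed difference between strands would widen the spread between strands alone, and its part in it was not tested. Calls were therefore repeated with each position entered as 5 or as 11 reads at its measured level. With 5 reads, 3 of 929 called windows and 2 of 101 called gene ends kept their call. With 11 reads, 47 windows kept it, 37 higher and 10 lower, and 9 gene ends, all higher. In reads simulated from 5 or 11 molecules with no difference, the call on all reads was often made, for 5 in more windows than in the data, while entering the reads as that many molecules removed nearly all such calls. Both settings take positions as independent, which neighbours on the same fragments are not. A call below therefore says that 2 read sets differ. It does not say that the 2 cell populations differ, and the counts of calls are not counts of regions that differ between them.

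The promoters below belong to the protein-coding genes called higher or lower at the annotated start by the most, 3 each way, among those with at least 6 measured CpGs and 100 reads per library in the window shown. They show some of the CpGs behind each call, which was made on a longer stretch from 1000 bases outside to 500 inside the start. The printed bases hold 11 of the 18 positions of the Lhcgr end, 11 of 22 for Arhgef18 and 21 of 36 for Rfx8. The sequences are RefSeq's for GRCm38.p6, the same build as mm10, written 5′ to 3′ on the gene's strand from 250 bases before the start to 50 after it, and capitals mark the CpGs that were measured. Lhcgr encodes the receptor for luteinising hormone (chr17:88791965-88792264, minus strand). The Arhgef18 promoter lies at chr8:3392758-3393057, plus strand. Rfx8 encodes a member of the RFX family of DNA-binding proteins (chr1:39720940-39721239, minus strand). Acot11 encodes an acyl-CoA thioesterase (chr4:106804958-106805257, minus strand). Pnliprp2 encodes a lipase related to pancreatic lipase (chr19:58759473-58759772, plus strand). Nrsn2 encodes a neuronal membrane protein (chr2:152376556-152376855, minus strand).
Lhcgr: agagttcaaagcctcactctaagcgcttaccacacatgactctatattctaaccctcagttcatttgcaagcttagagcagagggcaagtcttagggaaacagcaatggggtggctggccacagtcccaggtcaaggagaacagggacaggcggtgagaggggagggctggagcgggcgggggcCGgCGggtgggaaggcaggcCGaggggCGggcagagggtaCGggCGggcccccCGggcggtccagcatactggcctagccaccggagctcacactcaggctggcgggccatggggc
Arhgef18: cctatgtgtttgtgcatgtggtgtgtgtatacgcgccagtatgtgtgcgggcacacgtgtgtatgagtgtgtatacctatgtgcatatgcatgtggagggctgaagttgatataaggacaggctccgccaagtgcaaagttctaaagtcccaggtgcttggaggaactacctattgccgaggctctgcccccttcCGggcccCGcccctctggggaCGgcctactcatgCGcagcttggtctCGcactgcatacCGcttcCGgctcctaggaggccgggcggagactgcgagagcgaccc
Rfx8: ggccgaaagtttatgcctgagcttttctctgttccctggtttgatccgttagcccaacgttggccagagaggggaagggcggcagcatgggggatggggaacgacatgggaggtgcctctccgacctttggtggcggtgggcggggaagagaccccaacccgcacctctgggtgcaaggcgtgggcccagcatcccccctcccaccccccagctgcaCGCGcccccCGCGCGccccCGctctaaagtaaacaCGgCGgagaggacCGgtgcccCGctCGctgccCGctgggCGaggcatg
Acot11: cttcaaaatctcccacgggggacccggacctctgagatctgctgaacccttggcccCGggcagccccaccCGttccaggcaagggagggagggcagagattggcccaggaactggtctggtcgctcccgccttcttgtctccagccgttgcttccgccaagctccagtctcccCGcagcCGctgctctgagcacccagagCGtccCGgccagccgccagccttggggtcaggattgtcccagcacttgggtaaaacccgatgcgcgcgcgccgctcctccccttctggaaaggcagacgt
Pnliprp2: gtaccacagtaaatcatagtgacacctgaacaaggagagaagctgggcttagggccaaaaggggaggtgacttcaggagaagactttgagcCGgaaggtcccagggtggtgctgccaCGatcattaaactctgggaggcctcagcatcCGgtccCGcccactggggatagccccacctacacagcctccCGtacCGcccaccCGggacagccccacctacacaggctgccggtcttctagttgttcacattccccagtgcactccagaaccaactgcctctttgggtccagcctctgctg
Nrsn2: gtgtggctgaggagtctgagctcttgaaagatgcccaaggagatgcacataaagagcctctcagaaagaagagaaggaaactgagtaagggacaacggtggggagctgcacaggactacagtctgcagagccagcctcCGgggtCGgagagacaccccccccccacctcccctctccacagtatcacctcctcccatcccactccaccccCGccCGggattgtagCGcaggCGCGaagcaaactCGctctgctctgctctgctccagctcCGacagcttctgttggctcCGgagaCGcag

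In the Lhcgr promoter as printed, 7 of 14 CpGs were measured, at 11 positions with a mean level of 49.8% in KI MPP and 19.2% in KI ST-HSC, and all 11 were higher in KI MPP. In the Rfx8 promoter, 13 of 23 CpGs were measured at 21 positions, which averaged 58.9% in KI MPP and 33.3% in KI ST-HSC. All 21 were higher in KI MPP, but over the whole Rfx8 end 30 of 36 positions were higher and 6 lower, by as much as -25.9 points. The Arhgef18 promoter averaged 40.8% in KI MPP and 23.7% in KI ST-HSC over 11 positions, 10 of them higher in KI MPP. That difference is smaller than the one over the whole Arhgef18 end, 30.0 points, so much of it lay outside the printed bases. On the side of lower levels, Pnliprp2 averaged 72.6% in KI MPP and 88.2% in KI ST-HSC over 12 positions, of which 11 were lower in KI MPP. Nrsn2 averaged 44.3% in KI MPP and 55.1% in KI ST-HSC over 15 positions, of which 13 were lower. Acot11 averaged 29.3% in KI MPP and 50.2% in KI ST-HSC over 6 positions, but 2 of the 6 lay the other way. Neighbouring positions are often read from the same fragments, so the number that lie one way is not a number of independent observations. The called starts were poorer in CpGs than most. The median number of CpGs in the printed window was 13 at the 45 starts called higher and 10 at the 29 called lower, against 23 at all 11319 annotated starts tested. Of those 11319, 86.6% were under 10% in KI ST-HSC and could not have been called lower. The called starts were not compared with starts of like level.

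**Figure D1:**
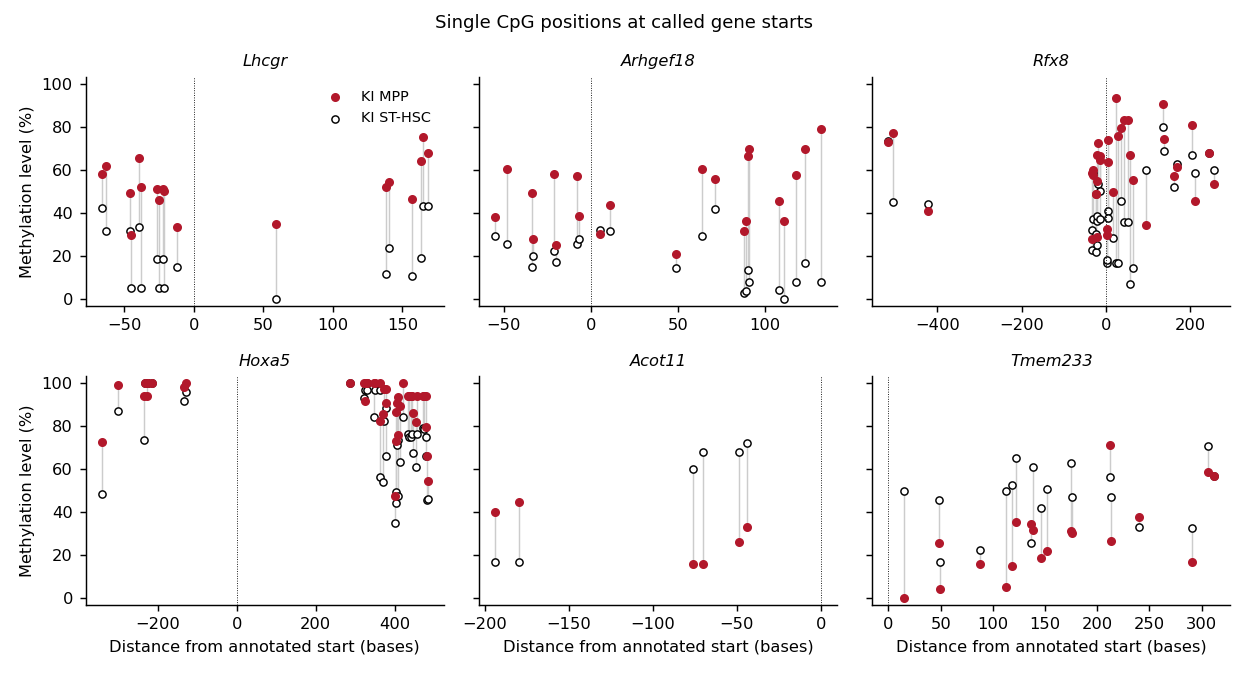
Methylation level in percent (vertical axis) at each measured CpG position against its distance in bases from the annotated start (horizontal axis) at 6 called gene starts, with filled points for KI MPP and open points for KI ST-HSC, joined by a line at the same position. KI MPP was higher at 18 of 18 positions of Lhcgr and 21 of 22 of Arhgef18, and lower at 4 of 6 positions of Acot11 and 16 of 19 of Tmem233.

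Over all positions the 2 cell types had nearly the same mean methylation level. It was 33.0% in KI MPP and 32.4% in KI ST-HSC, a difference of 0.67 percentage points, and 0.26 points when positions were weighted by their reads. KI MPP was higher at 30.6% of positions, lower at 23.7% and equal at 45.8%. These shares were not taken at equal depth. The unweighted difference was positive on each of the 19 autosomes, between 0.60 and 0.87 points. Weighted by reads it was positive on 13 and negative on 6, between -2.68 and 0.96 points. With 1 library a side there is no replicate spread to set it against. Depth differed between the libraries, with 51951665 reads and a median of 39 per position in KI MPP against 38284759 and 27 in KI ST-HSC, and 10 reads drawn per position gave 0.68 points.

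Gene starts averaged 6.98% in KI MPP and 6.48% in KI ST-HSC, gene bodies 53.0% in KI MPP and 52.2% in KI ST-HSC, and intergenic positions 71.8% in KI MPP and 70.8% in KI ST-HSC. The mean was thus higher in KI MPP in each of these 3 settings, by 0.50 to 0.98 points. At positions whose mean in the 3 Control libraries was 20 to 80%, KI MPP averaged 49.8% and KI ST-HSC 48.7%. At the same positions Control MPP averaged 47.6% and Control ST-HSC 42.8%. The difference between cell types was 1.13 points in KI and 4.81 points in Control, and whether it differs between genotypes was not tested, since each was a single library. The Control class was set with the Control values themselves. Over all 694220 positions covered in these 4 libraries, KI MPP averaged 30.2% and KI ST-HSC 29.6%, a difference of 0.64 points, and Control MPP 28.6% and Control ST-HSC 28.2%, a difference of 0.41 points. Weighted by reads these differences were 0.23 points in KI and -1.90 points in Control.

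Single positions gave 1170 called higher in KI MPP, which is 0.128% of those tested, and 819 called lower, which is 0.0899%, at a difference of at least 25 points. The 2 strands of a CpG seldom shared a call. Of 161 CpGs called higher on the forward strand where both strands were read, 3 were called higher on the reverse strand, and of 124 called lower, 3 were called lower on it. None was called the opposite way on the reverse strand.

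Of 40760 windows of 1 kb with at least 5 positions, 612 were called higher in KI MPP (1.5%) and 317 lower (0.778%). Windows with few positions were called more often, but level differed with the number of positions. Windows of 5 to 9 positions averaged 70.5% in KI MPP and 69.6% in KI ST-HSC. Those of 40 or more averaged 4.90% in KI MPP and 4.40% in KI ST-HSC. The parts of level and number of positions were not separated. Windows of 5 to 9 positions were called higher in 2.34% of cases and lower in 1.14%, and windows of 40 or more positions in 0.139% and 0.0396% of cases. Windows at 20 to 80% in the Control libraries were called higher in 6.96% of cases and lower in 4.87%. Gene starts were called higher in 0.574% of cases and gene bodies in 2.11%. These too differed in level, at a mean of 11.9% and 69.0% in KI MPP. The strands could be set side by side in 283 of the windows called higher and 157 of those called lower, which had at least 3 positions on each. Both strands went the way of the call in 266 of the 283 and 150 of the 157, and both by at least 10 points in 125 and 67. The calls used the reads of both strands, so this sharing of direction is in part set by the choice of windows.

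**Figure D2:**
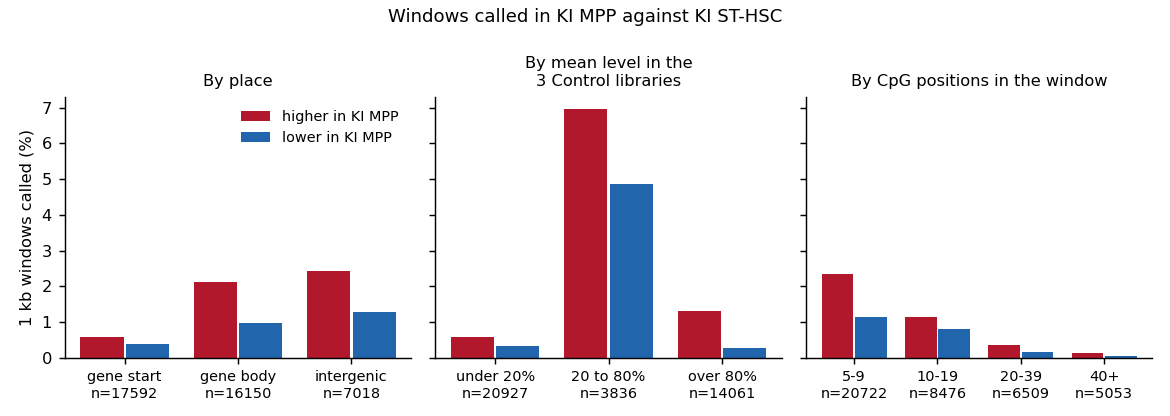
Share of 1 kb windows in percent (vertical axis) called higher (red) or lower (blue) in KI MPP, by place, by mean level in the 3 Control libraries and by number of CpG positions, with the number of windows under each pair of bars. The highest shares stand at windows of intermediate level, 6.96% higher and 4.87% lower, and the lowest at windows of 40 or more positions.

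The windows that kept their call with each position entered as 5 reads lay in the bodies of Snx20, Antxr2 and Peak1. Snx20 and Antxr2 are named because of this result, after their values were seen. Snx20 encodes a sorting nexin (chr8:88627001-88628000), Antxr2 a receptor for anthrax toxin (chr5:97935001-97936000) and Peak1 a pseudokinase (chr9:56223001-56224000). The Snx20 window averaged 73.1% in KI MPP and 39.8% in KI ST-HSC over 33 positions, with an adjusted p of 5.6e-05 in Fisher's exact test with 5 reads per position. Antxr2 averaged 66.1% in KI MPP and 38.3% in KI ST-HSC over 40 positions (adjusted p = 0.00073 in the same exact test). Peak1 averaged 53.4% in KI MPP and 88.9% in KI ST-HSC over 22 positions (adjusted p = 0.00012 in the same exact test). Both windows that were higher in KI MPP were higher in MPP of the Control mice too. At the 21 positions of Snx20 covered in all 6 libraries, Control MPP stood at 86.4% and Control ST-HSC at 48.7%. At 34 such positions of Antxr2, Control MPP stood at 62.1% and Control ST-HSC at 45.0%. At the 5 such positions of Peak1, Control MPP stood at 50.4% and Control ST-HSC at 70.0%.

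Genes of stem cell regulators, the transcription factors and receptors that maintain stem cells, held 9 windows called higher and 2 called lower in KI MPP among 101. These are shares of 8.91% and 1.98%, beside 1.5% and 0.778% over all windows and 2.11% and 0.978% over gene bodies. Windows at 20 to 80% in the Control libraries were called higher in 6.96% of cases and lower in 4.87%. The windows of this list were not compared with windows of like level. With 5 reads per position none of the 11 kept its call, and with 11 reads 2 did, in Gfi1 and Prdm16. The list was singled out after its values were seen. Prdm16, a chromatin regulator needed to maintain stem cells, held 3 of them. One averaged 74.8% in KI MPP and 38.1% in KI ST-HSC over 10 positions, another 82.4% in KI MPP and 49.1% in KI ST-HSC over 5, and the last 98.8% in KI MPP and 87.3% in KI ST-HSC over 6. Gfi1, a transcriptional repressor that restrains stem cell division, averaged 72.4% in KI MPP and 47.3% in KI ST-HSC over 32 positions. Its adjusted p in Fisher's exact test was 0.052 with 5 reads per position and 6.8e-08 with 11. Hlf, a transcription factor of stem cells, averaged 73.9% in KI MPP and 44.4% in KI ST-HSC over 5 positions.

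Gata2, a transcription factor required for stem cell survival, had 2 windows called higher in its body. These averaged 34.1% in KI MPP and 16.4% in KI ST-HSC over 20 positions, and 84.0% in KI MPP and 72.5% in KI ST-HSC over 7. Its start stayed low, at 3.62% in KI MPP and 2.83% in KI ST-HSC, and was not called. Erg and Runx1, transcription factors of the blood lineage, each had 1 body window called higher, by 14.8 and 11.7 points. The 2 windows called lower lay at starts. Runx1 averaged 15.6% in KI MPP and 25.7% in KI ST-HSC over 16 positions, and Nr4a1, a nuclear receptor, 7.13% in KI MPP and 17.6% in KI ST-HSC over 8. The Control libraries took no part in choosing these windows. Of the 9 called higher in KI MPP, Control MPP was above Control ST-HSC in 7, at the positions each library covered. Hlf and Erg lay the other way, Hlf at 21.3% in Control MPP and 29.9% in Control ST-HSC over all its 5 positions. At positions covered in all 6 libraries, 7 of the 9 had a value and Control MPP was higher in 5, Erg and the last Prdm16 window lying the other way. Of all windows called higher in KI and covered in the 4 libraries, 63.6% had Control MPP above Control ST-HSC, and of all windows tested 50.6%.

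**Figure D3:**
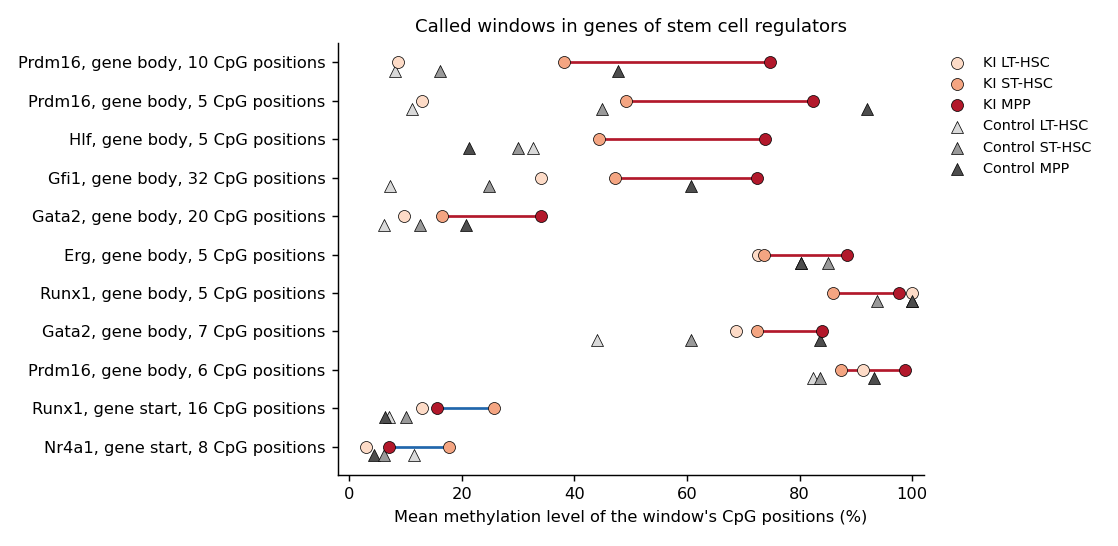
Mean methylation level in percent (horizontal axis) of the 11 called windows in genes of stem cell regulators, circles for KI and triangles for Control libraries, shaded from LT-HSC (long-term haematopoietic stem cells, light) to MPP (dark), with a line between KI ST-HSC and KI MPP in red where KI MPP was higher and blue where it was lower. Each library's value is over those of the window's positions it covered, which can be fewer than the number beside the gene, and the 9 red lines include 3 windows of Prdm16 and 2 of Gata2.

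A run of 3 called windows within 5 kb lay between Rpn1, a subunit of the oligosaccharyl transferase, and Gata2 (chr6:88116001-88121000). From the first to the last they averaged 79.2%, 75.4% and 91.2% in KI MPP and 50.5%, 22.2% and 66.9% in KI ST-HSC, over 10, 6 and 5 positions. All 3 were higher in KI MPP, and the middle one had the largest difference of all called windows, 53.1 points. The same windows averaged 63.6%, 75.0% and 84.0% in Control MPP and 49.1%, 50.6% and 73.3% in Control ST-HSC, at the positions covered there. The run ended 72.9 kb before the nearer annotated start of Gata2. A distal enhancer of Gata2 is known upstream of the gene, and whether the run overlaps it was not determined.

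The other windows with the largest differences lay in genes of many kinds. Tlr9, a receptor for unmethylated DNA, averaged 47.9% in KI MPP and 5.68% in KI ST-HSC over 9 positions. Mvb12b, a component of a membrane sorting complex, averaged 95.3% in KI MPP and 46.0% in KI ST-HSC over 5. On the other side, Hoxc6, a homeobox gene, averaged 9.66% in KI MPP and 56.4% in KI ST-HSC over 5 positions. Csf2rb, the shared receptor chain for interleukin 3 and GM-CSF, averaged 35.2% in KI MPP and 68.6% in KI ST-HSC at 5 positions near its start. The remaining windows of the 10 called higher by the most were near or in Nkx1-1, Gm41787, Crybb3, Gm30217, Adam11, Arsb and Chst13, and differed by 37.6 to 44.7 points. The 10 called lower by the most were, besides Hoxc6, Csf2rb and Peak1, near or in A330102I10Rik, 9030625G05Rik, LOC115486949, Kcnh3, Gnas, Panx2 and Gm38836. With 11 reads per position all 10 called higher by the most kept their call, as did 7 of the 10 called lower, all but Csf2rb, LOC115486949 and Kcnh3. With 5 reads Peak1 alone kept it.

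Gene ends were measured from 1000 bases outside to 500 inside the annotated start, or, for genes without one, the end of the gene richer in CpGs. Of 13996 gene ends tested, 61 were called higher in KI MPP (0.436%) and 40 lower (0.286%), and the median difference was 0.50 points. Most could not have been called lower, since 85.5% were under 10% in KI ST-HSC. Besides Lhcgr, at 52.4% in KI MPP and 20.2% in KI ST-HSC, and Arhgef18, at 48.0% in KI MPP and 18.0% in KI ST-HSC, those called higher by the most included 3 ends of 5 to 7 positions. Tomm20l, related to a mitochondrial import receptor, stood at 49.2% in KI MPP and 16.4% in KI ST-HSC. Prrt3, a membrane protein, stood at 56.9% in KI MPP and 24.8% in KI ST-HSC, and Crispld2, a secreted protein, at 52.9% in KI MPP and 23.3% in KI ST-HSC.

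The ends called lower by the most were largely those of non-coding genes or of few positions. Mesp2, a transcription factor of somite formation, stood at 12.9% in KI MPP and 38.6% in KI ST-HSC over 5 positions. Gnb3, a G protein subunit, stood at 48.5% in KI MPP and 71.0% in KI ST-HSC over 6. The lncRNA genes D7Ertd143e, Gm51876, 1700060C20Rik, Gm46811, Gm52698 and Gm42060 differed by -28.8 to -19.3 points. With each position entered as 5 reads, the one region that kept a call was shared by Nup210, a nuclear pore protein, and Gm30364. It averaged 11.7% in KI MPP and 1.39% in KI ST-HSC over 49 positions, of which 14 were higher in KI MPP, 4 lower and 31 equal. The largest differences, up to 75.5 points, lay at neighbouring forward-strand positions with 10 reads each in KI MPP. Summed reads of the region gave 5.83% in KI MPP and 1.43% in KI ST-HSC, less than 10 points apart. At the 26 positions covered in all 6 libraries the region averaged 1.54% in KI MPP and 2.44% in KI ST-HSC, so the difference rested on the other positions. With 11 reads Lhcgr, Arhgef18, Hoxb2, Rfx8, Hoxa5 and the region shared by Mcrs1 and 1700120C14Rik kept theirs too. These last genes are named because of this result, and their region stood at 13.8% in KI MPP and 2.76% in KI ST-HSC over the 27 positions of the 1700120C14Rik end. Summed reads of that end gave 5.69% in KI MPP and 2.62% in KI ST-HSC, less than 10 points apart.

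Hox genes, which set position in the embryo and act in stem cells, had 2 of 26 gene ends called higher and 1 called lower. Of all gene ends 0.436% were called higher and 0.286% lower. However, 85.5% of all ends were under 10% in KI ST-HSC, against 14 of the 26. Of the 1543 ends at 10 to 90% in KI ST-HSC, 45 were called higher and 33 lower. The Hox ends were not compared with ends of like level. Hoxa5 stood at 90.2% in KI MPP and 76.1% in KI ST-HSC over 43 positions, of which 36 were higher in KI MPP. At the positions covered there, Control MPP stood at 76.2% over 43 and Control ST-HSC at 60.6% over 35. At the 35 positions covered in all 4 libraries, Control MPP was above Control ST-HSC by 11.6 points, which was called higher. Hoxb2, at an end that shares bases with Hoxb3os, stood at 42.1% in KI MPP and 15.3% in KI ST-HSC over 23 positions, of which 22 were higher in KI MPP. At the Hoxb2 end Control MPP was above Control ST-HSC by 5.99 points, which was not called. Hoxb1 stood at 16.5% in KI MPP and 35.4% in KI ST-HSC over 9 positions, but 4 of the 9 were higher in KI MPP and 5 lower, and Control MPP was above Control ST-HSC there by 3.59 points over 7 positions. Across the 4 Hox clusters, 4 of 150 windows were called higher (2.67%) and 6 lower (4.00%), beside 1.5% and 0.778% of all windows. The Hoxa cluster held 3 of those called higher and none called lower, and the Hoxb cluster 1 called higher and 4 called lower. Windows at 20 to 80% in the Control libraries were called higher in 6.96% of cases and lower in 4.87%. The Hox windows were not compared with windows of like level.

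Imprinted genes, which carry methylation on 1 parental copy, had 4 of 20 gene ends called higher, beside 0.436% of all, from only 2 regions. Of the 20, 6 were under 10% in KI ST-HSC, beside 85.5% of all ends. Among the 1543 ends at 10 to 90% in KI ST-HSC, 45 were called higher. The imprinted ends were not compared with ends of like level. Of the 20 ends 11 were higher in KI MPP and 9 lower. The largest falls, H19 at -19.5 points and Snrpn at -10.6 points, each over 6 positions, were not called. The region shared by Peg3 and Usp29 stood at 50.0% in KI MPP and 21.4% in KI ST-HSC over 8 positions, and all 8 were higher in KI MPP. Control MPP stood at 54.6% there, Control ST-HSC at 47.0% and Control LT-HSC at 56.8%, and KI LT-HSC at 61.8%. The region shared by Peg10 and Sgce stood at 57.4% in KI MPP and 30.1% in KI ST-HSC over 11 positions, with 28.9% in Control MPP and 28.0% in Control ST-HSC. KI LT-HSC stood at 29.0% and Control LT-HSC at 35.9% in that region. Of 53 windows in imprinted genes, 4 were called higher (7.55%) and 2 lower (3.77%), beside 1.5% and 0.778% of all windows. Among windows at 20 to 80% in the Control libraries, 6.96% were called higher and 4.87% lower. Within Gnas, another imprinted gene, 1 window was called higher, by 20.1 points, and 1 lower, at -32.1 points. At Zrsr1 1 window (chr11:22971001-22972000, 6 positions) was called lower at -25.3 points. The gene end of Zrsr1 differed by -4.30 points over 19 positions and was not called.

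The genes of methylation and of IDH had no called gene end among 19. Of all gene ends 0.436% were called higher and 0.286% lower, so this count of 0 shows little. All 19 were under 10% in KI ST-HSC and could not have been called lower. Their median difference was 1.00 point, beside 0.50 over all gene ends. Idh1 stood at 1.99% in KI MPP and 2.18% in KI ST-HSC, and Idh2 at 5.59% in KI MPP and 1.97% in KI ST-HSC. Tet1, Tet2 and Tet3 differed by 0.45, 0.10 and 1.76 points, and Dnmt1, Dnmt3a and Dnmt3b by 1.39, 0.53 and 0.73 points. Atm, the kinase of the DNA damage response, stood at 3.34% in KI MPP and 2.20% in KI ST-HSC. The ends of Kit, Flt3, Meis1, Mecom, Cebpa and Ikzf1 were all under 9% in both cell types and were not called.

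Markers of blood lineages and other cell types had no called gene end in any of 4 lists, of 7 myeloid, 11 lymphoid, 6 erythroid and megakaryocyte genes, and 7 genes of other marrow cells. With 0.436% and 0.286% of all ends called, lists of this size would hold none on average, so these counts of 0 show little. Inside the genes, 3 of 43 erythroid and megakaryocyte windows were called higher, which is 6.98%, beside 1.5% of all windows and 2.11% of those in gene bodies. Zfpm1, a partner of GATA factors, held 2, with 45.1% in KI MPP and 25.4% in KI ST-HSC in the larger, and Itga2b, the platelet integrin CD41, stood at 71.8% in KI MPP and 54.6% in KI ST-HSC. Among lymphoid genes, 2 of 68 windows were called lower (2.94%), beside 0.778% of all windows and 0.978% of those in gene bodies. These lay in Ebf1 and Bcl11b, regulators of B and T cells, at -17.6 and -20.1 points. Of 37 windows in genes of other marrow cells, 2 were called higher (5.41%) and 1 lower (2.70%). Those called higher lay in the endothelial Kdr and Pecam1, by 27.1 and 12.1 points. The 1 called lower lay at Lepr, a stromal receptor, at -21.0 points. The windows of these lists were not compared with windows of like level, and of those at 20 to 80% in the Control libraries 6.96% were called higher. Whether other cells in the sorts had a part in any difference was not tested. In Kit, the receptor used in the sort, 1 body window stood at 100% in KI MPP and 87.9% in KI ST-HSC. It was the 1 called among 10 windows in genes of sort and progenitor surface markers (10%), beside 1.5% of all windows called higher. Nkx2-3, Dkk3 and Cdk6, from 3 further lists, were lower by -12.0 points at the start, -14.5 points at the CpG-rich end and -15.8 points in the body. Nkx2-3 was the 1 called of 54 gene ends of other homeobox genes, beside 0.286% of all ends called lower. The Nkx2-3 end shares bases with Gm20467. Dkk3 was the 1 called of 22 ends of tumour suppressor and WNT inhibitor genes, beside 0.286% of all ends called lower. The Cdk6 window was the 1 called of 56 in cell cycle genes (1.79%), beside 0.778% of all windows called lower.

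**Figure D4:**
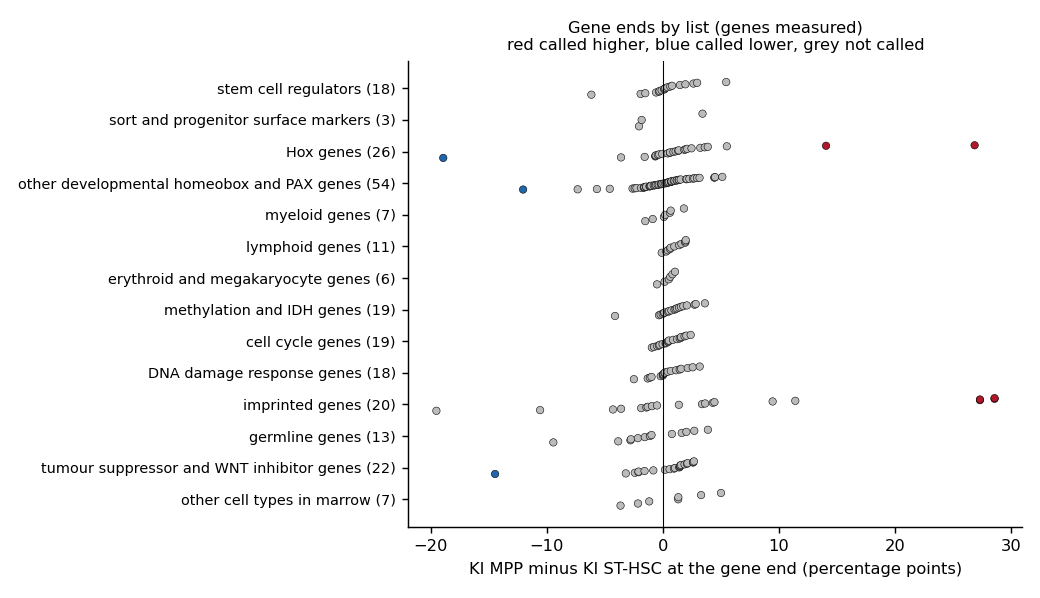
Difference in mean methylation level at each gene end, KI MPP minus KI ST-HSC, in percentage points (horizontal axis), 1 dot per gene, by gene list with the number of genes measured in brackets. Most dots lie within a few points of 0, and the called ones are in the lists of Hox genes, imprinted genes, other homeobox genes, and tumour suppressor and WNT inhibitor genes.

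The same step in the Control mice shares no library with the KI comparison. At 32097 windows covered in all 4 libraries, KI MPP was called higher in 461 (1.44%) and lower in 241 (0.751%). Control MPP was called higher in 1358 (4.23%) and lower in 775 (2.41%). Of the 461 called higher in KI, 28.6% were called higher in Control, and of those called higher in Control, 9.72% were called higher in KI. In the other direction, 13.3% of the windows called lower in KI were called lower in Control and 16.6% were called higher. Level and number of positions bear on how often any window is called. Among 2621 windows at 20 to 80% in Control LT-HSC, a library in neither comparison, 38.4% of those called higher in KI were called higher in Control, beside 20.6% of all such windows. Of those called lower in KI, 11.6% were called lower in Control, beside 9.65% of all, a share near the background. For gene ends covered in the 4 libraries, 55 were called higher in KI (0.421%) and 40 lower (0.306%), and in Control 179 higher (1.37%) and 87 lower (0.666%). Of these, 19 were called higher in both genotypes and 5 lower in both. Among the 55 called higher in KI, 3 (5.45%) were called lower in Control, and among the 40 called lower in KI, 8 (20%) were called higher in Control. With each position entered as 11 reads, 24 windows were called higher in KI, and 11 of them (45.8%) were called higher in Control, beside 0.732% of all windows. In that setting 4 were called lower in KI, none of them called in Control in either direction.

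**Figure D5:**
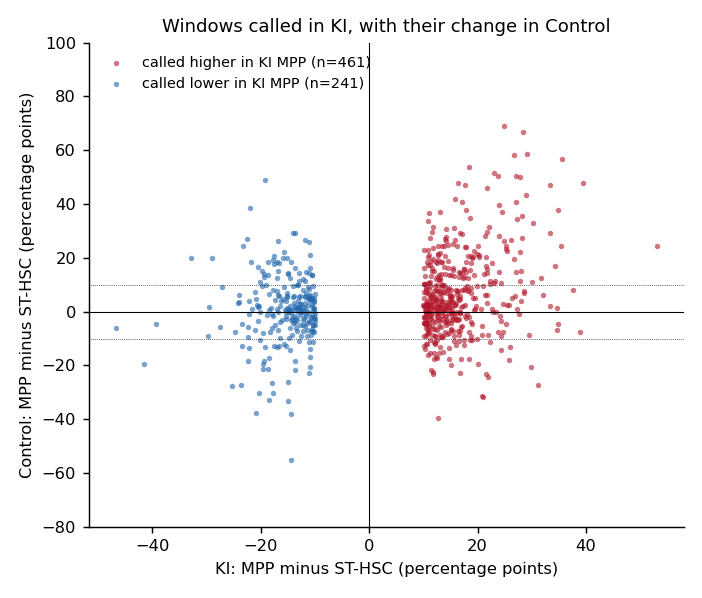
Difference between MPP and ST-HSC in KI (horizontal axis) and in Control (vertical axis), in percentage points, for the windows called in KI among those covered in all 4 libraries, with red for the 461 called higher in KI MPP and blue for the 241 called lower. The Control difference of the red points has a median of 3.65 points and that of the blue points a median of 0.82 points.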

How the data were processed

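Each sample was 1 eRRBS library, made from 10 ng of DNA with fragments of 150 to 400 bp and sequenced 5 to a lane with 30% PhiX, per the labels' protocols. Per the submitters' processing notes, the tools were Bismark 0.10.0, SAMtools 1.0 and methylKit 0.9.1, with genome build mm10. Whether duplicate reads were removed, the settings and the conversion rate: not given in the sources used here. Per the file headers, the authors deposited a read count for every position (coverage, never under 10) and the percent of those reads that were C or T. Coverage times percent gave whole methylated reads at 100% of positions, within 0.01 points.

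Python 3.11.15, numpy 2.4.6, pandas 2.3.3, numba 0.67.0 and scipy 1.17.1 were used. Positions were compared at a difference of at least 25 points, and windows and gene ends with at least 5 positions at 10 points, each with Fisher's exact test and Benjamini-Hochberg adjustment under 0.01. Reads are not replicates, so p-values cover counting error only. Tested on simulated reads, the call made few false calls when each read was its own molecule. With no simulated difference, reads from 5 molecules per position gave more called windows than the data hold, and reads from 11 gave fewer than the data but still many. Entering each position as that many reads made few false calls in either case and found only part of the simulated differences, with 5 reads the smaller part. Gene places and starts came from RefSeq for GRCm38.p6. Genes without an annotated start used the gene end with at least 3 times the positions of the other, which is not known to be the start.

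The members, gene lists and rule for naming genes were chosen with earlier results of these data known. Named were the 10 windows and 10 gene ends with the largest called difference in each direction, up to 4 called members per list, and a set of key genes. Windows inside the genes of a list, the run near Rpn1, the printed promoters, and the genes that kept a call with 5 or 11 reads per position were added after values were seen. Alternatives included other coverage, position, size and weighting rules, equal depth, and, chosen after seeing the data, 5 or 11 reads per position, each strand alone, annotated starts only, and windows at intermediate level in Control LT-HSC.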

Additional observations from a re-analysis of the deposited data

Results flagged for a closer look

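In 3 named windows and 2 named gene ends, MPP and ST-HSC were called in opposite directions in KI and in Control, at positions covered in all 4 libraries. With 1 library per genotype and cell type, none of these differences between genotypes was tested. None of the 5 kept its KI call when each position was entered as 5 or as 11 reads. A window that overlaps the Gm51876 end (chr11:96269001-96270000, 13 positions) did keep its lower KI call with 11 reads, at -26.4 points. Over all windows covered in the 4 libraries, opposite calls were more frequent than the background. Of those called lower in KI, 16.6% were called higher in Control, beside 4.23% of all. Of those called higher in KI, 8.03% were called lower in Control, beside 2.41% of all. For gene ends these shares were 20% beside 1.37% and 5.45% beside 0.666%. Windows of intermediate level gave shares near the background. Among windows at 20 to 80% in Control LT-HSC, 20.3% of those called lower in KI were called higher in Control, beside 20.6% of all such windows. Of those called higher in KI, 9.30% were called lower in Control, beside 9.65% of all. The Ebf1 and Pecam1 windows lay outside that class, with Control LT-HSC at 81.0% and 7.69%. Shares at intermediate level were not taken for gene ends.

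A window in Kcnh3, a potassium channel gene, differed by -32.8 points in KI (26.1% in MPP and 58.9% in ST-HSC) and by 19.9 points in Control (56.5% in MPP and 36.7% in ST-HSC), over 8 positions. The KI difference lay on 1 strand, at -2.34 points on the forward strand and -51.1 points on the reverse. A window in Ebf1 differed by -17.6 points in KI and by 17.6 points in Control, over 6 positions. A window in Pecam1 differed by 12.1 points in KI and by -12.2 points in Control, over 5 positions. The gene end of Gm52698 differed by -19.3 points in KI and by 48.8 points in Control, over 5 positions. The gene end of Gm51876 differed by -17.5 points in KI and by 11.8 points in Control, over 9 positions.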

How the results depend on the processing

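The counts of calls depend strongly on what is counted as an observation. With each position entered as 5 reads, 2 windows were called higher and 1 lower, 2 gene ends higher and 0 lower, and 0 windows in genes of stem cell regulators in either direction. In the same setting 2 windows were called higher in both genotypes, 0 lower in both, and 0 in opposite directions. None of 23 named gene ends and 1 of 56 named windows kept its call. That setting has little power, so a lost call does not show that the cell types are alike. With 11 reads, 37 windows were called higher and 10 lower, 9 gene ends higher and 0 lower, and 2 and 0 windows of stem cell regulators, and 4 of 23 named gene ends and 22 of 56 named windows kept their call. In that setting 11 windows were called higher in both genotypes, 0 lower in both, and 0 in opposite directions. The levels entering either setting are those measured, so directions could not change. With 10 reads drawn per position, 0 CpG positions were called in either direction, 47 windows higher and 13 lower, 17 gene ends higher and 2 lower, and 2 and 0 windows of stem cell regulators. Here 5 of 23 named gene ends and 19 of 56 named windows kept their call. With the strands of a CpG summed, 224 CpGs were called higher and 155 lower, and 125 of 283 windows called higher and 67 of 157 called lower, those with 3 positions on each strand, were past 10 points on both.

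The mean difference of 0.67 points was 0.62 at coverage of at least 20, 0.26 weighted by reads and 0.58 at positions covered in all 6 libraries. At coverage of at least 20, 400 windows were called higher and 24 gene ends lower. At positions covered in all 6 libraries, 305 windows were called higher and 159 lower, and 4 and 1 of stem cell regulators. With at least 10 positions, 128 windows were called higher and 82 lower, 28 gene ends higher and 12 lower, and 3 and 1 windows of stem cell regulators. At 5 points, 1361 windows were called higher and 615 lower, and 177 gene ends higher and 118 lower. At 25 points these were 81 and 18 windows, and 11 and 2 gene ends. Without Fisher's test they were 1112 and 649 windows, and 107 and 86 gene ends. On summed reads 70 gene ends were called lower.

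Windows called higher in both genotypes numbered 132, and 277 at 5 points, 17 at 25 points, 73 at coverage 20 and 66 at intermediate Control LT-HSC level. Those lower in both numbered 32, and 66, 1, 19 and 16 in the same settings. Those higher in KI and lower in Control numbered 37, and 92, 1 and 16 at 5 points, at 25 points and at intermediate level. Those lower in KI and higher in Control numbered 40, and 92, 0 and 23 at 5 points, at 25 points and at coverage 20. Why these counts moved was not tested. No paired analysis was possible because each group had 1 library.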

Other observations

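The sex chromosomes took no part in the comparison. On the X chromosome, 12969 positions averaged 36.5% in KI MPP and 36.0% in KI ST-HSC, a difference of 0.59 points. On the Y chromosome, 439 positions averaged 93.5% in KI MPP and 91.8% in KI ST-HSC.

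The other run of 3 called windows lay at Gm41362 (chr15:80051001-80058000), with a mean difference of 16.5 points and all 3 higher in KI MPP. Among the 250 windows called higher in KI MPP with at least 5 positions covered in all 6 libraries, the median level was 34.8% in KI LT-HSC, 49.3% in KI ST-HSC and 70.0% in KI MPP. The medians were 29.5% in Control LT-HSC, 35.9% in Control ST-HSC and 54.1% in Control MPP. KI LT-HSC was below KI ST-HSC in 131 of the 250 and above it in 119. Among 140 windows called lower, the medians were 42.5% in KI LT-HSC, 53.8% in KI ST-HSC and 39.1% in KI MPP, and 34.4% in Control LT-HSC, 35.7% in Control ST-HSC and 34.9% in Control MPP. These windows were chosen on KI MPP and KI ST-HSC, so the order of those 2 values is set by the choice.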
